A study of Caenorhabditis elegans with 2 samples.

Results

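The mitochondrial ribosomal protein genes of the nematode Caenorhabditis elegans were taken as the protein-coding genes whose symbols begin with mrpl- (large subunit) or mrps- (small subunit). Ensembl release 115 holds 70 of them among the 19973 protein-coding genes of the 6 nuclear chromosomes, 41 mrpl and 29 mrps. Their promoters were searched for binding of ATTF-6, a protein with AT-hooks, in chromatin immunoprecipitation and sequencing (ChIP-seq) of young adult worms aged 64 hours. The worms were whole animals of a strain in which CRISPR had joined TY1, EGFP and 3xFLAG tags to attf-6, and ATTF-6 was precipitated with an antibody against GFP. They had been synchronised by bleaching and starvation at the L1 larval stage, and their chromatin was sonicated to a size range of 200 to 800 bp. The 2 samples are biological replicates 1 and 2 of this single group. The labels name a possible control experiment, which was not analysed here. Whether the deposited signals already take a control into account is not stated. In whole worms, binding in few cells and weak binding in many cells cannot be told apart.

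The mitochondrial ribosome translates the few messages of the mitochondrial genome, which encode core subunits of the respiratory chain. Its RNAs come from the mitochondrial genome, whereas its proteins are encoded in the nucleus, made in the cytosol and imported. In Caenorhabditis elegans, lowered expression of several of these genes, mrps-5 among them, is known to lengthen life and to induce the mitochondrial unfolded protein response. An AT-hook is a short peptide that contacts the minor groove of DNA rich in A and T.

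Few of these genes were bound. In the conservative joint list of 2134 regions, 2 of the 70 genes (2.86%) had a summit, the highest point of a region, in the promoter, which ran from 1000 bp before to 200 bp after any annotated transcript start. These were mrps-7, of the small subunit, and mrpl-23, of the large subunit. Among all protein-coding genes the share was 4.29%, or 856 genes, so the members' share lay near the background. The regions of this list have a global irreproducible discovery rate (IDR, the estimated share of irreproducible regions among those ranked as high or higher) of 0.01 or less. The other joint list of 2269 regions marked the same 2 genes, against 4.63% of all genes. Replicate 1 alone, with 1219 regions, also marked these 2 genes, against 2.84%. Replicate 2 alone, with 1110 regions, marked them and mrpl-32, so 3 genes or 4.29%, against 2.52%. With 2 samples of 1 group no test across samples was possible, and these counts are descriptions.

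The sequences at 3 of these promoters are shown because they differ in what lies under the summit. As picked examples, they do not stand for bound or unbound promoters in general. They are those of mrps-7, bound in every thresholded list, of mrpl-32, marked in 1 replicate, and of the stretch upstream of mrps-24 that also lies upstream of mrpl-1, neither of them bound in any. Each is reference sequence of ce11 from the RefSeq assembly, read in the direction of the gene named first. Capitals mark the motif CTGCGTC on either strand and every unbroken run of 10 or more A or T. The mrps-7 sequence is chrIV:14767802-14767983 on the minus strand, with its summit at base 82. The mrpl-32 sequence is chrIII:8449347-8449480 on the plus strand, with its summit at base 34. The mrps-24 sequence is chrIV:7709866-7710044 on the plus strand, with its summit at base 101.
mrps-7: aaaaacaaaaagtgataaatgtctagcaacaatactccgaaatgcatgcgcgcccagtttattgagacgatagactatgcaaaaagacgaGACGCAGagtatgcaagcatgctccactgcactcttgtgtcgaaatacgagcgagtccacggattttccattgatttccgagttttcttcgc
mrpl-32: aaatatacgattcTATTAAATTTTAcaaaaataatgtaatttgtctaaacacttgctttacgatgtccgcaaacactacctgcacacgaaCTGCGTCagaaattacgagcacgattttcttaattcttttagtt
mrps-24: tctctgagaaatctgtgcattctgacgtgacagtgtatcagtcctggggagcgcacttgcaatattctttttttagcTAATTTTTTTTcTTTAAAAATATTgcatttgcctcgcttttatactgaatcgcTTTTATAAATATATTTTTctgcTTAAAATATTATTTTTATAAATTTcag

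The mrps-7 stretch holds CTGCGTC, as its reverse complement, with the motif's centre 12 bases from the summit. It has no run of 10 or more A or T and no AATT. The mrpl-32 stretch has the motif 60 bases from the summit and 1 such run of 12 bases. The mrps-24 stretch has no CTGCGTC and 4 runs, the longest of 24 bases. A match is a run of letters and does not show that ATTF-6 contacts it.

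The strongest binding was at mrps-7 (WBGene00013324, IV 14766773 to 14767730, minus strand), the counterpart of bacterial S7, which helps to organise the head of the small subunit. Its main region ran from 14767801 to 14767983 (183 bp), with the summit at 14767902, 172 bp upstream of the start. The deposited signal, a value with no stated unit, was 237 in the joint list. It was 116 in replicate 1 and 119 in replicate 2, with global IDRs of 1.74e-05 and 1e-05. Both replicates thus listed it past the threshold, and the region ranked 177th of 2134 by signal. How signals were scaled in each replicate is not stated, so values of the replicates are given side by side and their sizes are not compared. It lies between genes, in the 471 bp that separate the start of mrps-7 from the outermost annotated start of the oppositely directed Y57G11C.3. The start of mrps-7 is the nearer to the summit.

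A weaker summit lay 824 bp upstream of mrps-7, at 14768554, in a coding exon of Y57G11C.3 and 264 bp from the nearest of that gene's annotated starts. Its joint signal was 62.1 (IDR 0.00366, rank 1685). Replicate 1 gave it 43.8 (IDR 0.00690) and replicate 2 gave it 29.0 (IDR 0.875), so only replicate 1 listed it past the threshold. The gene also stands in a long part of chromosome IV that is rich in piRNA genes, from 13500001 to 17250000. There 127 of 464 protein-coding genes, or 27.4%, had a promoter summit. Of the members, mrps-7 alone lies in this stretch. Outside it, on the autosomes, the share of all genes was 4.16%, and 1 of 69 members was bound.

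The other bound gene was mrpl-23 (WBGene00020348, I 6211270 to 6211885, minus strand), the counterpart of bacterial L23, a protein beside the exit of the peptide tunnel. Its summit at 6212860, in a region of 324 bp, had a joint signal of 81.5 (IDR 0.0010) and ranked 1049th. Replicate 1 gave 37.0 (IDR 0.00720) and replicate 2 gave 48.8 (IDR 0.00106). Both replicates thus passed the threshold, in each with a lower signal than at mrps-7. The summit lay 975 bp upstream of mrpl-23, close to the outer edge of the promoter window. That position is in an intron of fars-1, which ends 95 bp upstream of mrpl-23 on the same strand and encodes a phenylalanyl-tRNA synthetase subunit. The summit also lies on the ncRNA gene T08B2.14 and on a pseudogene, 36 bp from the start of the snoRNA gene T08B2.13. Without summits within 500 bp of a tRNA, snRNA or snoRNA gene start, mrps-7 was the only bound member, and the share of all genes was 3.69%. With a promoter of 500 bp it was also the only member, against 3.25% of all genes. Giving each summit only to the protein-coding gene with the nearest start left both genes bound, against 3.31%. That rule did not consider starts of RNA genes. The mrpl-23 summit lies nearer to the start of the snoRNA gene T08B2.13 than to that of mrpl-23.

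The gene mrpl-32 (WBGene00016249, III 8449757 to 8450519, plus strand) was marked in the list of 1 replicate. Its product is the counterpart of bacterial L32, whose maturation in yeast and mammals needs the mitochondrial m-AAA protease. The summit at 8449380, 377 bp upstream, had a joint signal of 38.4 and an IDR of 0.0119, just outside the threshold of 0.01. Replicate 2 gave it 35.5 with an IDR of 0.00590. Replicate 1 listed no region over this summit, and its strongest region elsewhere in the promoter had 14.8. The call thus rests on replicate 2. The summit lies between genes, downstream of rpn-3, a proteasome subunit gene that ends 410 bp upstream of mrpl-32.

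**Figure D1:**
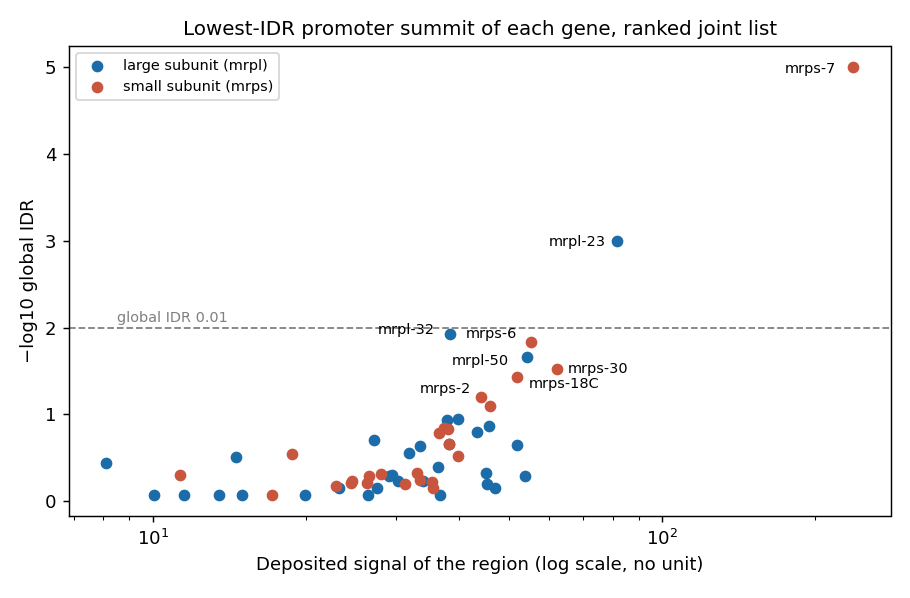
Each point is a mitochondrial ribosomal protein gene with a promoter summit in the ranked joint list. The x axis gives the deposited signal (log scale, no unit) and the y axis −log10 of the global IDR, both for the gene's summit of lowest IDR. The dashed line marks an IDR of 0.01. The points of mrps-7 and mrpl-23 lie above it, and mrpl-32 at 0.0119 and mrps-6 at 0.0146 lie just below.

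The next 4 genes just outside the threshold in the joint list, after mrpl-32, reached IDRs from 0.0146 to 0.0373. The summit of mrps-6, the counterpart of bacterial S6, had a signal of 55.3 (IDR 0.0146) and lay 8 bp from the start of rpn-8, a proteasome subunit gene, but 537 bp from that of mrps-6. At mrpl-50, a protein of mitochondrial ribosomes without a bacterial counterpart, it was 54.3 (IDR 0.0221), in the gene's own 5′ UTR 10 bp after the start. That start follows the end of the chaperonin gene cct-2 by 25 bp. At mrps-30, whose mammalian counterpart has been placed in the large subunit despite its name, it was 62.2 (IDR 0.0302), 21 bp after the annotated transcript start, in a coding exon of the gene itself. At mrps-18C, 1 of the genes for proteins related to bacterial S18, it was 52.0 (IDR 0.0373), 746 bp upstream in a coding exon of eri-9. The summit of mrps-2, the counterpart of bacterial S2, had 44.2 at a weaker IDR of 0.0630, in the gene's own intron. These summits thus lay at the members' own starts in mrpl-50, mrps-30 and mrps-2, and in or beside another gene in mrps-6 and mrps-18C.

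Both replicates listed regions over all 5 of these summits. Replicate 1 gave 26.0 at mrps-6, 25.9 at mrpl-50, 23.5 at mrps-30, 24.0 at mrps-18C and 21.2 at mrps-2. Replicate 2 gave 30.5, 26.3, 27.6, 24.7 and 25.4 in the same order. None of the 10 values passed the threshold of its own replicate's list, where the lowest IDR was 0.105. At an IDR of 0.05 in the ranked joint list, 7 of the 70 members (10%) had a promoter summit, 3 mrpl and 4 mrps, against 7.05% of all genes. At the stricter level of 0.001, mrps-7 was the only member, against 2.27%. The IDR of mrpl-23, 0.001002, lay just above that level.

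Weak regions were frequent at these promoters. The ranked joint list holds 79981 regions of any IDR, most of them far from the threshold. In it, 57 of the 70 members (81.4%) had a promoter summit, against 61.4% of all protein-coding genes. The remaining 13 members had none. The share was 95.1% in cytosolic ribosomal protein genes and 82.9% in respiratory chain genes. In the 12 mitochondrial aminoacyl-tRNA synthetase genes it was 83.3%, so a high share was not particular to the members. In replicate 1's ranked list the members with a summit numbered 48 (68.6%), against 47.1% of all genes. In replicate 2's they numbered 46 (65.7%), against 46.7%. The share of members was thus above that of all genes in each list, by description and without a test.

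The members' strongest ranked summits were mostly of modest signal. Their median was 35.3, with a lowest value of 10.1 and the highest of 237 at mrps-7, whereas the median over all genes with a summit was 26.9. A signal of 20 or more was reached by 71.4% of the members and 44.5% of all genes, and one of 40 or more by 24.3% and 12.8%. At higher levels few members were left, namely 3 at 60 or more (4.29%, against 4.62% of all genes), 2 at 80 or more (2.86% against 2.66%) and mrps-7 alone at 100 or more (1.43% against 1.85%) and at 200 or more (1.43% against 0.461%). The wider gaps between members and all genes thus stood at 20 and 40, whereas the shares from 60 up rest on 1 to 3 members. Among autosomal genes outside the piRNA-rich part of IV, 44.5% reached 20 and 12.9% reached 40. In cytosolic ribosomal protein genes 84.0% and 43.2% did so, and in respiratory chain genes 73.2% and 39.0%, all above the members' shares.

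**Figure D2:**
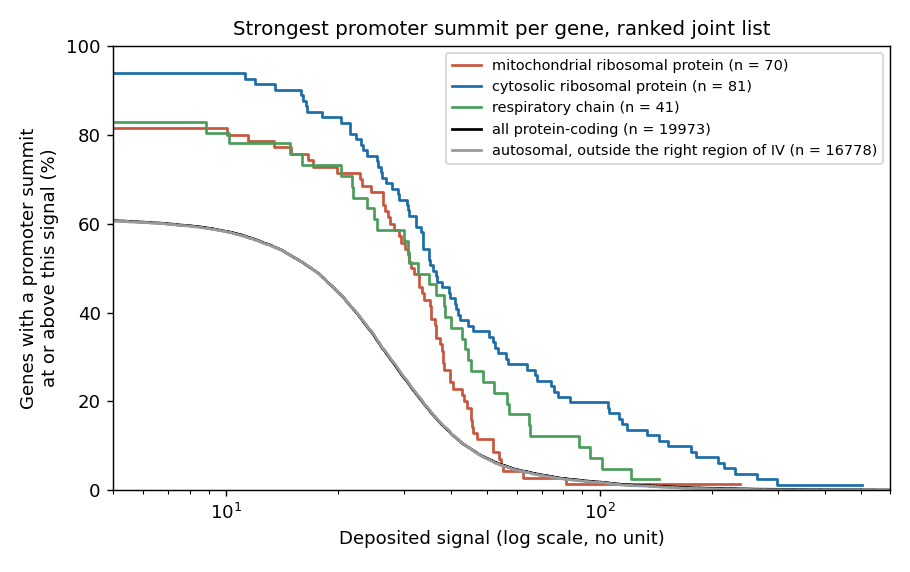
The y axis gives the percent of genes of each list whose strongest promoter summit in the ranked joint list has at least the deposited signal on the x axis (log scale, no unit). The line of the mitochondrial ribosomal protein genes starts at 81.4%, against 61.4% for all protein-coding genes, and meets it near a signal of 60, where the shares are 4.29% and 4.62%.

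The 62 members not described one by one had strongest ranked signals from 10.1 to 53.8, with a median of 33.0 over the 49 that had a summit. Their lowest IDRs ranged from 0.0809, at mrps-12, to 0.848. Over all members with a summit, the median signal was 35.8 in mrpl genes (32 of 41 with a summit) and 35.3 in mrps genes (25 of 29). At an IDR of 0.2 or less there were 8 of 41 mrpl genes (19.5%) and 9 of 29 mrps genes (31.0%), against 12.1% of all protein-coding genes, a difference that was not tested. The gene mrps-5, known for the lifespan effect of its knockdown, had a signal of 35.3 at an IDR of 0.610, 718 bp upstream of its start.

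The replicates ordered the members' weak regions loosely. Of the 70 genes, 33 had a promoter summit in both replicates' ranked lists, 15 in that of replicate 1 only, 13 in that of replicate 2 only and 9 in neither. Over the 33 genes the Spearman correlation of the replicates' strongest signals was 0.23. Without mrps-7, mrpl-23 and mrpl-32 it was 0.15 over 30 genes. Over the 6246 protein-coding genes with a summit in both it was 0.52. That value keeps the marked genes, and none without them was computed to set beside 0.15. All of these values are correlations across genes of 2 libraries, and the strongest region of a gene can lie at another place in each. At mrpl-24, of the large subunit, replicate 1 gave 37.9 and replicate 2 gave 8.53, the joint IDR being 0.514.

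**Figure D3:**
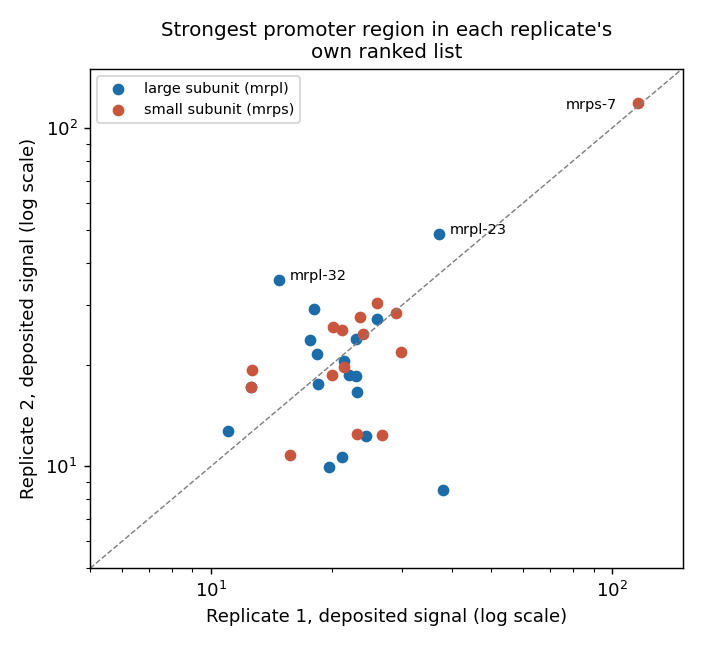
Each point is a mitochondrial ribosomal protein gene with a promoter region in both replicates' ranked lists, 33 in all. The axes give the deposited signal of its strongest promoter region in replicate 1 (x) and replicate 2 (y), both on log scales with no unit, and the dashed line marks equal values. The point of mrps-7 lies apart from all others at 116 and 119, and that of mrpl-32 lies at 14.8 and 35.5.

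The strongest ranked summits of the 57 members lay at a median of 412 bp upstream of the start, with quartiles at 634 and 117 bp upstream. Within 300 bp upstream and 200 bp downstream of a start there were 24 of them (42.1%). Over all genes the median was 321 bp upstream, and 47.6% lay in that inner window. Most of the members' summits thus lay outside the stretch next to the start, as did most of those of all genes.

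**Figure D4:**
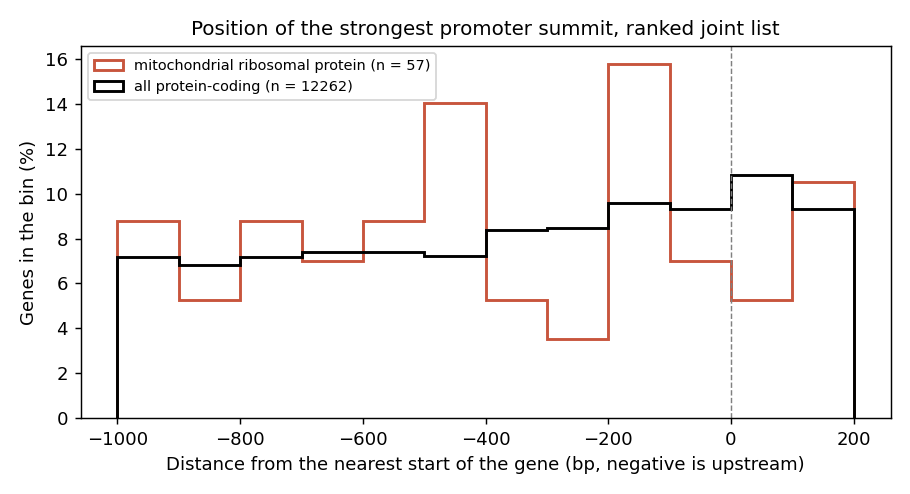
The x axis gives the distance in bp from the nearest start of the gene to its strongest promoter summit in the ranked joint list, negative upstream. The y axis gives the percent of genes in each bin of 100 bp, for 57 mitochondrial ribosomal protein genes and 12262 protein-coding genes. The members' summits spread over the whole window, with 42.1% between 300 bp upstream and 200 bp downstream against 47.6% for all genes.

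The members lie close to other genes. A gene on the same strand ended within 500 bp upstream of 27 of the 70 (38.6%), against 18.1% of all protein-coding genes. The share was 11.1% in cytosolic ribosomal protein genes and 34.1% in respiratory chain genes. In the 12 mitochondrial aminoacyl-tRNA synthetase genes it was 58.3%. Such spacing is typical of operons, in which 1 promoter serves several genes, but operon annotation was not used. Of these 27 genes 1 was bound (3.70%), and of the other 43 genes 1 was bound (2.33%). Split in the same way, 5.97% and 3.91% of all protein-coding genes were bound. A ranked summit was found at 81.5% of the 27 members and 81.4% of the 43, against 70.0% and 59.5% of all genes. Some members are each other's neighbours. The gene mrpl-4 starts 105 bp after mrps-2 ends, and mrps-22 starts 105 bp after the end of dap-3, which encodes another small-subunit protein. Of the 70 genes, 26 (37.1%) had the start of an oppositely directed gene within 1000 bp, against 17.7% of all genes. The share was higher in cytosolic ribosomal protein genes (59.3%) and in respiratory chain genes (53.7%). One such pair of members is mrpl-1 and mrps-24, whose starts are 344 bp apart, with that of emc-6 between them. These genes share 3 ranked summits with signals of 38.1, 26.6 and 12.2, none past the threshold. The strongest of these, with an IDR of 0.221, is the summit in the mrps-24 sequence printed above.

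A wider promoter of 2000 bp raised the count to 8 of 70 (11.4%), against 6.06% of all genes. The 6 added genes were mrpl-17, mrpl-32, mrpl-42, mrpl-48, mrps-28 and mrps-6. Their summits lay 1076 to 1606 bp upstream, with joint signals from 60.5 at mrpl-32 to 145 at mrps-28. In all 6 the nearest start was that of another gene, such as icln-1 at 41 bp for mrpl-42 and vps-37 at 600 bp for mrpl-48. The summit of mrps-28 lay 24 bp from a snoRNA gene start and that of mrps-6 lay 98 bp from another. Counting any overlap of a region with the usual promoter gave 5 members, mrpl-42, mrps-28 and mrps-6 being added, against 4.76% of all genes.

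The members are spread unevenly over the chromosomes, with 22 on III (31.4%, against 13.2% of all genes), 15 on I, 12 on II, 11 on IV, 10 on V and 0 on X (13.7% of all genes). None of the 22 members on III was bound, where 114 of 2640 protein-coding genes were. On IV, 1 of 11 members and 307 of 3281 genes were bound, and on I 1 of 15 members and 134 of 2878 genes.

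In base composition the members' promoters were close to other promoters. From 250 bases before to 50 after the start (300 bases), the median A+T content was 67.7% in the members, with a range of 58.7% to 81.3%, and 65.7% over all genes. It was 64.5% in the promoters of the 856 bound genes. AATT was in all 70 members' promoters and in 97.1% of all promoters, and a run of 10 or more A or T in 95.7% and 81.1%. TTTCAG, which resembles the splice acceptor used in trans-splicing, was in 67.1% and 51.7%. GGGCGG was in 8.57% and 7.83%, and CTGCGTC in 4.29% and 4.34%. All motifs were searched on both strands, and AATT can lie within an A/T run, whereas the others cannot. In this window the promoters of bound genes thus had no higher median A+T content than all promoters. A run of 10 or more A or T was in 83.3% of the bound genes' promoters, and CTGCGTC in 7.71%.

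The marked summits varied in A+T content. In the 101 bp around the summit A+T made up 51.5% at mrps-7, 41.6% at mrpl-23 and 70.3% at mrpl-32, against a median of 54.5% over the 799 promoter summits of the conservative list. In windows of 201 bp, CTGCGTC lay at 3 of the 56 different strongest ranked summits of the members, those of mrps-7, mrpl-32 and mrpl-36. It lay at 3.50% of the strongest ranked promoter summits of all genes and at 7.01% of the 799 conservative promoter summits. A run of 10 or more A or T lay at 53.1% and 58.4% of these, in the same order. Of the members' strongest ranked summits 62.5% had such a run. The summit at mrpl-36 had a signal of 26.4 and an IDR of 0.848. The main window of mrps-7 and that of mrpl-23 held no AATT, which was in 87.6% of all conservative summit windows. The windows of the weaker mrps-7 summit and of mrpl-32 held it. Among the 56 strongest ranked summits of the members 52 had it (92.9%), against 85.9% of those of all genes. The mrpl-23 window held none of the 5 motifs searched.

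The lists of other genes of mitochondrial translation and gene expression were short, so a single gene moves their shares widely. Of 12 matched genes for mitochondrial aminoacyl-tRNA synthetases, which charge tRNAs in the organelle, 2 were bound (16.7%), against 4.29% of all protein-coding genes. The summit 66 bp upstream of vars-1, the valyl-tRNA synthetase, had a joint signal of 82.9, with 58.0 in replicate 1 and 32.9 in replicate 2. That 30 bp upstream of ears-2, the glutamyl-tRNA synthetase, had 68.9, with 47.7 and 25.8. In the replicates' own thresholded lists vars-1 was marked by replicate 1 and ears-2 by neither. Of 12 genes listed under mitochondrial gene expression 0 were bound, against the same 4.29%. They include dap-3, the elongation factor gene tufm-1 and the RNA polymerase gene rpom-1. The DNA polymerase gene polg-1 is also among them, so the label is a loose one. In the ranked joint list 10 of these 12 (83.3%) had a promoter summit, against 61.4% of all genes, with a median signal of 26.5 against 26.9.

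Genes of the cytosolic ribosome and of the respiratory chain, whose core subunits the mitochondrial ribosome makes, had higher counts. Of 81 cytosolic ribosomal protein genes 23 were bound (28.4%), led by rpl-29 with a signal of 505, rpl-20 with 298, rpl-3 with 264 and rpl-15 with 231. Of 41 respiratory chain genes 9 were bound (22.0%), led by cyc-2.1, a cytochrome c, with 144, and the cytochrome oxidase subunit genes cox-5A with 122, cox-6A with 101 and cox-5B with 94.4. The cox-6A summit lay 30 bp from an snRNA gene start. Of these named genes, rpl-29 alone has its summit in the piRNA-rich part of IV from 13500001 to 17250000. The summits of rpl-20 and cyc-2.1 lie close together on IV, at 4750080 and 4748994. Whether they lie in another piRNA-rich stretch was not examined. The rpl-20 summit lies nearer to the start of Y17G9B.5, at 160 bp. With each summit given only to the nearest protein-coding start, 16 cytosolic ribosomal protein genes (19.8%) and 6 respiratory chain genes (14.6%) were bound. Of all genes 3.31% were bound by that rule. Replicate 1 alone marked 19 cytosolic ribosomal protein genes (23.5%) and 5 respiratory chain genes (12.2%), against 2.84% of all genes. Replicate 2 alone marked 14 (17.3%) and 5 (12.2%), against 2.52% of all genes. The median strongest ranked signals were nearer to each other, at 36.8 in the cytosolic list and 38.4 in the respiratory chain list, against 35.3 in the mitochondrial ribosomal protein genes. A signal of 60 or more was reached by 28.4%, 17.1% and 4.29% of the genes in that order. The lists thus had near medians and different shares of strong summits. The differences between lists were not tested.

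**Figure D5:**
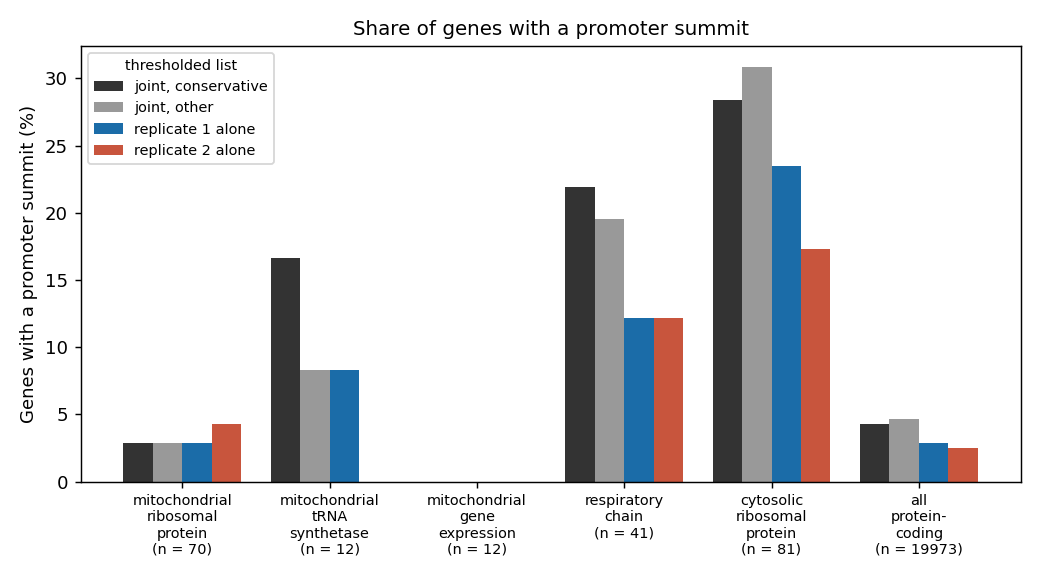
The bars give the percent of genes of each list with a promoter summit in the 4 thresholded lists, the conservative and other joint lists and those of replicates 1 and 2. In the conservative list the mitochondrial ribosomal protein genes stand at 2.86%, all protein-coding genes at 4.29%, the respiratory chain at 22.0% and the cytosolic ribosomal proteins at 28.4%.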

How the data were processed

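ChIP-seq of GFP-tagged ATTF-6 was deposited as 8 lists of regions on ce11, 4 of both replicates together and 2 of each replicate. Per the deposited notes, the lists are regions ranked or thresholded by the irreproducible discovery rate (IDR). Not given in the sources used here: aligner, peak caller, normalization and read depth. The signal values are the authors' own, as deposited, and were used to describe and rank regions within a list. Values of the replicates' separate lists are given side by side, since their scaling is not stated, and their correlation uses ranks. The deposited −log10 values of the global IDR were turned back into IDRs. Every region of the thresholded lists stood at an IDR of 0.01 or less in its ranked list. A further 16 columns with no sample name in the joint ranked lists were not used, and replicate values came from each replicate's own list.

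All coordinates lay within the chromosome lengths of WBcel235, the assembly of the annotation and sequence used. Summits were counted from 1 and assigned to promoters with Python 3.11.15, and the assignment was tested on simulated data. Gene lists were matched by symbol: 12 of 15 synthetase symbols and 12 of 16 gene expression symbols were found. The genes described one by one are every member with a promoter summit in a thresholded list, the 5 further members of lowest joint IDR and at most 4 bound members of each other list. The members and lists were chosen with earlier results of these data known. The piRNA-rich part of IV was defined as the longest run of neighbouring 250000 bp bins with at least 100 piRNA genes each. No other run was used. This part and the share outside it were added after seeing the data. The alternatives were other lists, IDR levels, promoter lengths, assignment rules and the removal of summits near short RNA genes.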

Additional observations from a re-analysis of the deposited data

How the results depend on the processing

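The count of 2 bound members held in the other joint list (4.63% of all genes) and with the nearest protein-coding start only (3.31%). At an IDR of 0.01 in the ranked joint list, a setting chosen after seeing the data, there were also 2 members (4.31% of all genes). Those regions hold the whole conservative list, so the count could not have fallen and this setting is no separate check. Leaving out 1 replicate gave 2 to 3 members, 1 to 2 mrpl genes, 0 to 1 synthetase genes, 14 to 19 cytosolic ribosomal protein genes and 5 to 5 respiratory chain genes. Of all genes 2.84% were bound in replicate 1 alone and 2.52% in replicate 2 alone. At an IDR of 0.001 there were 1 member (0 mrpl), 0 synthetase, 15 cytosolic ribosomal protein and 4 respiratory chain genes. The share of all genes at that level was 2.27%. At an IDR of 0.05 there were 7 members, 3 mrpl and 4 mrps, against 7.05% of all genes. A 2000 bp promoter gave 8 members, 5 mrpl and 3 mrps, against 6.06%. A 500 bp promoter gave 1 member (0 mrpl), against 3.25%. Any overlap gave 5 members, 2 mrpl and 3 mrps, against 4.76%. Without summits near short RNA genes there was 1 member (0 mrpl), against 3.69%. The other joint list had 1 synthetase gene. The cause was not tested where a count moved. The bound members' median signal of 159 became 80.7 with 2000 bp and 81.5 with any overlap.

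Few bound members mean that 1 gene changes the share, and the unknown depth leaves no detection limit to give. No control was analysed here. No paired analysis was possible because the 2 samples belong to 1 group.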
